A study of Mus musculus with 88 samples.

Results

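The 10 core circadian clock genes Per1, Per2, Per3, Cry1, Cry2, Arntl, Npas2, Nr1d1, Nr1d2 and Dbp were followed across mouse nucleus accumbens, the ventral part of the striatum. They were chosen by symbol among the 55487 genes of a count table, and all 10 had counts in every library and were kept by the filter on low counts. The study delivered, with a pair of herpes simplex vectors, a Cas9 without nuclease activity that carries CREB(S133D), the active mutant of the transcription factor CREB, and a guide RNA. The guide was g11, which directs the fusion to the Fosb locus (targeted groups), or gNT, a guide with no target (control groups). Every group therefore received vectors, surgery and the Cas9 fusion. Both sexes were on a C57BL/6 backcross, and tissue was taken 6 days after surgery. Cre-dependent vectors were given to D1-Cre mice (groups F_D1 and M_D1) or D2-Cre mice (F_D2 and M_D2), so that expression needed the Cre of D1 or D2 medium spiny neurons, the principal cells of the accumbens. Vectors that do not need Cre were given to D1-Cre mice in the F_D1-D2 and M_D1-D2 groups. Libraries numbered 6 targeted and 8 control in F_D1, 7 and 4 in M_D1, 8 and 8 in F_D2, 7 and 8 in M_D2, 12 and 8 in F_D1-D2, and 4 and 7 in M_D1-D2. A second sequencing batch held 9 of the 87 libraries, 3 targeted and 6 control, all M_D2. RNA came from the whole dissected tissue. Neither the age of the mice nor the hour of dissection was used here. The labels do not say that each library is 1 animal, so the p-values measure the spread between these libraries, which may be technical.

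The mammalian clock is a transcriptional loop. The protein products of Arntl (BMAL1) and of Clock or its paralogue Npas2 form a dimer that binds E-boxes and drives the Per and Cry genes, the Nr1d genes and Dbp, and the PER and CRY proteins return to the nucleus and inhibit the dimer. In a second loop the nuclear receptors REV-ERB alpha and beta, encoded by Nr1d1 and Nr1d2, repress Arntl, so that in rhythmic tissues Arntl transcripts peak at about the opposite time of day from those of Dbp and the Per genes. Per1 is also an immediate early gene that CREB can induce, and Npas2 is the partner of BMAL1 best known from the forebrain and striatum.

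Total counts per library ran from 12430387 to 69568367, with a median of 31393804, and 4 targeted libraries had over 90% of their counts in only 10 genes. At the lowest, single libraries held 5 reads of Arntl or Per3, 8 of Per2 and 59 of Nr1d2, so the low values carry a large counting error. Fosb, the gene that the guide targets, had median CPM, counts scaled to the TMM-normalised library size, in targeted and control libraries of 9.81 and 7.16 in F_D1, 6.49 and 4.47 in M_D1, 5.96 and 7.48 in F_D2, 6.13 and 10.2 in M_D2, 6.48 and 6.73 in F_D1-D2, and 10.3 and 9.07 in M_D1-D2. The Fosb difference did not pass in any arm (lowest adjusted p = 0.695, edgeR), so the guide's action on its own target was not detectable in these tissue counts. The medium spiny neuron list of 10 markers was detected in full in every library. The most similar pair of the 3741 library pairs lay in different groups, library 18722 (M_D1-targeted) and library 18749 (M_D1-D2-targeted), with a chi-square per gene of 4.31 that is above sampling noise, and leaving out both changed no call on a clock gene.

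Promoter windows of a few clock genes are shown because the E-box CACGTG is the sequence that the BMAL1 dimer recognises. RefSeq promoter windows of 300 bases around an annotated start (build GRCm38.p6, the build of the mm10 counts) were matched for 9 of the 10 genes. The motif, which is its own reverse complement, is in capitals in windows of Per1 (chr11:69098699-69098998, plus strand), Cry1 (chr10:85185005-85185304, minus strand), Ciart (chr3:95882179-95882478, minus strand) and Tef (chr15:81802423-81802722, plus strand). Ciart encodes a further repressor of the BMAL1 dimer, and Tef a transcription factor of the same PAR bZIP family as Dbp.
Per1: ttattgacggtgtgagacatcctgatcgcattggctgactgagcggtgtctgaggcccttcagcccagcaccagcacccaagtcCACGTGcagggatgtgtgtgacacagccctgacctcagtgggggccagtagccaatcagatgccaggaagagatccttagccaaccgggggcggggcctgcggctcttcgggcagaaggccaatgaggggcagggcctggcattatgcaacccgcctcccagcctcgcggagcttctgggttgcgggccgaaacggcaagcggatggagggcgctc
Cry1: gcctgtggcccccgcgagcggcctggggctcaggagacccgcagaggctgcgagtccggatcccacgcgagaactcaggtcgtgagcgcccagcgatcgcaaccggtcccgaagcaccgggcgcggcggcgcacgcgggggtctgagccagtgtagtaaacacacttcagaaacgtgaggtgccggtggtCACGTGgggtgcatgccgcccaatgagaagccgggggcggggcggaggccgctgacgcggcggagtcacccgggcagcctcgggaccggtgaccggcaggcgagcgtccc
Ciart: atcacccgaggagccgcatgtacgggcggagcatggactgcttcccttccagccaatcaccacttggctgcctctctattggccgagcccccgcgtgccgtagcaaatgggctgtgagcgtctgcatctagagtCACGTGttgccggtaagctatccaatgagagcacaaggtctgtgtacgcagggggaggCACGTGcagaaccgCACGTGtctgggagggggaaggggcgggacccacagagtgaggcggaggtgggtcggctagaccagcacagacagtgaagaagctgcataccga
Tef: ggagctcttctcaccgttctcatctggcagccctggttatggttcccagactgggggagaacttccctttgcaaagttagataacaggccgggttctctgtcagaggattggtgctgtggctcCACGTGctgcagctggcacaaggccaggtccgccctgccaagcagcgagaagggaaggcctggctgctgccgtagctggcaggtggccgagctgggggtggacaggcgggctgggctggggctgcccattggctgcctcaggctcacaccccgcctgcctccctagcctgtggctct
CACGTG stood in 7.15% of all 32851 mouse windows. Among the 9 matched clock genes only Per1 and Cry1 held it, and among 10 matched partner genes Ciart (3 copies), Bhlhe41, Cipc and Tef. The E-box-like motif CACGTT, searched on both strands, stood in windows of Cry1, Cry2 and Nr1d1 and in 4.68% of all windows. The sequence AGGTCA, which REV-ERB proteins recognise, on either strand, stood in windows of Arntl, Per1 and Nr1d2 and in 16.3% of all. The full cAMP response element TGACGTCA, through which CREB acts, stood in none of the clock gene windows and in 1.79% of all, and of the partners only Hlf held it. The D-box TTATGTAA, which DBP family proteins recognise, stood in the Per3 window and in 0.938% of all windows, and the D-box TTACGTAA in no clock gene window and in 0.119% of all. These matches describe letters in a short window and are not binding sites.

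The repressor genes of the loop were the most and the least abundant of the set. On the scale of log2 CPM per kilobase of exon, which sets genes of different length side by side, the mean levels over 87 libraries were 4.50 for Nr1d2, 4.20 for Dbp, 3.77 for Nr1d1, 3.51 for Npas2, 3.29 for Cry2, 3.19 for Cry1, 2.81 for Per1, 1.63 for Per2, 1.30 for Arntl and 0.72 for Per3. Per1 stood above Per2 in all 87 libraries, by 1.18 on that scale (SD 0.32), and this was the widest step in the order. Arntl stood above Per3 in 79 of 87 libraries, by 0.58 (SD 0.43). The mean step of every other pair of neighbours was under its SD: Cry2 stood above Cry1 in 51 of 87 libraries with a mean difference of 0.09 (SD 0.44), Npas2 above Cry2 in 56, and Nr1d1 above Npas2 in 61. Arntl, whose loss alone stops the behavioural rhythm of mice, was near the bottom of the order. In unscaled counts the medians were 120 CPM for Nr1d2, 63.7 CPM for Cry2, 56.2 CPM for Npas2, 54.1 CPM for Dbp, 40.3 CPM for Nr1d1, 38.4 CPM for Per1, 30.9 CPM for Cry1, 18.2 CPM for Arntl, 16.7 CPM for Per2 and 15.9 CPM for Per3.

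**Figure D1:**
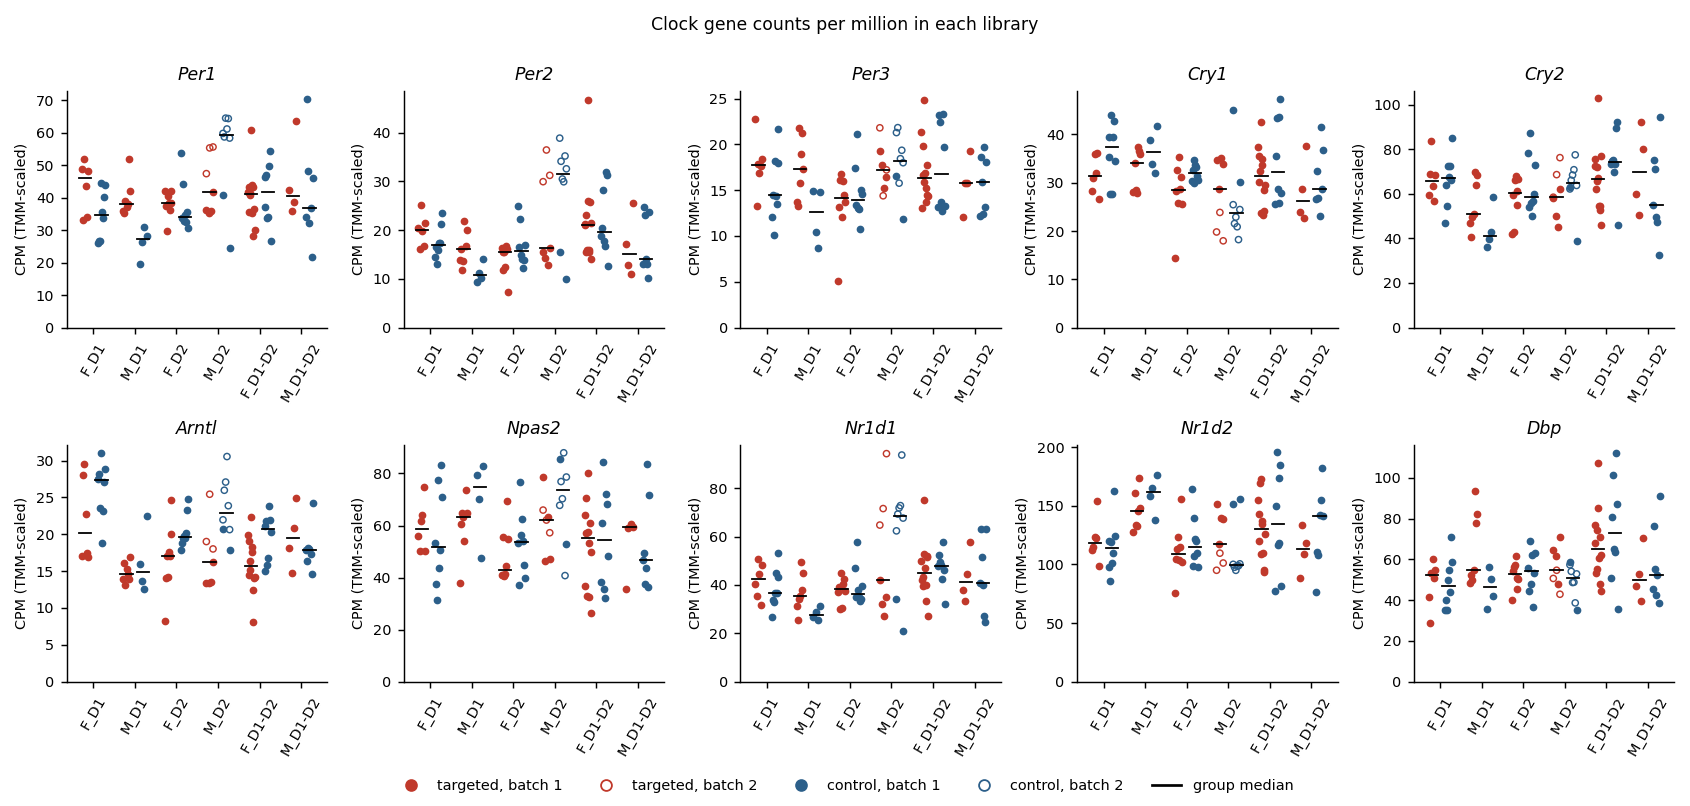
CPM (y axis, linear, scaled by TMM-normalised library size) of each clock gene in each of the 87 libraries, by arm (x axis) with targeted libraries left of control libraries; open symbols are batch 2 and bars are group medians. In M_D2 the open symbols lie above all filled ones for Per1, Per2 and Nr1d1 and below all filled ones for Cry1 and Nr1d2. The share of all genes without overlap between the batches was not computed.

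Positions are on mm10 with GENCODE M21. Per1 lies on chromosome 11 from 69095217 to 69109960 and Nr1d1 on the same chromosome from 98767932 to 98775333. Arntl lies on chromosome 7 from 113207465 to 113314126 and Dbp on that chromosome from 45705088 to 45710203. Several genes share exon bases with a neighbour on the other strand, and since the sources used here do not give the strand setting of the counting, reads of the pairs cannot be told apart there. Sphk2 covers 539 exon bases of Dbp (18.0%), Thra 263 of Nr1d1 (8.5%), D930015M05Rik 295 of Cry2 (4.7%) and Gm45355 33 of Arntl (0.4%). Per1, Per2, Cry1 and Nr1d2 overlap no other gene, and Per3 lies inside Camta1 on the same strand with no exon base shared.

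The question of the design is what the Fosb guide does in each sex and each combination of Cre line and vector. None of the 10 clock genes passed at an adjusted p of 0.05 in any of the 6 arms (edgeR quasi-likelihood, Benjamini-Hochberg over 25420 genes), where the share of all genes called was 0.00393% in F_D1, 0% in M_D1, F_D2 and F_D1-D2, 0.0629% in M_D2 and 0.00393% in M_D1-D2. Before adjustment 8 of the 60 gene-by-arm differences had p under 0.05: 1 of 10 in F_D1, 4 in M_D1, 1 each in F_D2, M_D2 and F_D1-D2, and 0 in M_D1-D2. Over all genes the share was 4.48% in F_D1, 7.11% in M_D1, 1.66% in F_D2, 2.18% in M_D2, 3.4% in F_D1-D2 and 3.22% in M_D1-D2. They were Per1, Per2, Per3 and Dbp in M_D1 and Per1 in F_D1, all positive, and Arntl in the other 3 arms, negative. The remaining 52 differences lay between -0.25 and 0.40 on the log2 scale. As in all values here, fewer cells of a type and less RNA per cell cannot be told apart.

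Period genes, which encode the PER repressors, had their largest guide differences in male D1 mice. Per1 stood at 35.3 CPM at the lowest, 37.9 CPM at the median and 51.9 CPM at the highest of the 7 M_D1-targeted libraries, against 19.6, 26.5, 30.9 and 28.1 CPM in the 4 M_D1-control libraries. The groups did not overlap, and the log2 fold change was 0.60 ± 0.19 (SE), with p = 0.00236 and an adjusted p of 0.686 in edgeR. The share of all genes without overlap between these groups was not computed. Per2 had 11.9, 16.1 and 21.9 CPM (lowest, median, highest) in targeted libraries and 9.36, 11.2, 10.2 and 14.0 CPM in control libraries, a log2 fold change of 0.55 ± 0.24. Per3 had 13.3, 17.3 and 21.8 CPM in targeted libraries, against 14.9, 10.5, 8.67 and 14.8 CPM in control libraries, 2 of them under every targeted value, and a log2 fold change of 0.52 ± 0.20. Dbp, an output gene whose product is a PAR bZIP activator, had 48.6, 54.9 and 93.3 CPM in targeted libraries and 35.5, 56.3, 50.5 and 42.0 CPM in control libraries, with a log2 fold change of 0.51 ± 0.23. The groups overlapped for Per2, Per3 and Dbp. The medium spiny neuron list ran from 7.02 to 8.09 (median 7.78) in mean log2 CPM in M_D1-targeted libraries and from 7.19 to 7.58 (median 7.38) in M_D1-control libraries, and its part in these differences was not tested. The 12 activity-regulated genes such as Fos and Egr1 ran from 3.69 to 4.39 (median 3.98) in M_D1-targeted and from 3.12 to 3.95 (median 3.62) in M_D1-control libraries, with 11 of 12 differences positive, 3 of them with an unadjusted p under 0.05 and 0 passing, and their part was not tested either. With limma-voom and sample quality weights, 3 clock genes passed in this arm, Per1 (0.65, adjusted p = 0.0199), Per3 (0.68, adjusted p = 0.0273) and Cry2, among 747 genes called (2.94%).

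In female D1 mice Per1 had a smaller positive difference. It had 33.2, 46.0 and 51.9 CPM (lowest, median, highest of 6) in F_D1-targeted libraries and 25.9, 34.7 and 44.6 CPM (of 8) in F_D1-control libraries. The groups overlapped, and the log2 fold change was 0.32 ± 0.16 with an adjusted p of 1 in edgeR. Per2 differed by 0.19 and Per3 by 0.22 in this arm, neither with p under 0.05. The cortical neuron marker list ran from 2.58 to 5.37 in mean log2 CPM in F_D1-targeted libraries and from 0.59 to 3.73 in F_D1-control libraries. Of its 10 markers 0 passed, 8 had positive differences and 5 had an unadjusted p under 0.05. The activity-regulated genes ran from 4.12 to 4.50 in F_D1-targeted and from 3.76 to 4.26 in F_D1-control libraries, with 12 of 12 differences positive, 1 with an unadjusted p under 0.05 and 0 passing. The part of either list in the Per1 difference was not tested. Over both sexes the D1 guide effect on Per1 was 0.46 ± 0.12 (p = 0.000397, adjusted p = 0.675), with 0.37 for Per2 and 0.37 for Per3, and 0 of 10 clock genes passed against 0.00393% of all genes. With limma-voom Per1 alone passed there (0.49, adjusted p = 0.0299).

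In the D2 and D1-D2 arms no Period gene had an unadjusted p under 0.05. Per1 had 29.7, 38.3 and 42.1 CPM in the 8 F_D2-targeted libraries and 30.7, 34.2 and 53.9 CPM in the 8 F_D2-control libraries. In M_D2 the batches have to be read apart. In batch 2, Per1 had 47.4, 55.3 and 55.6 CPM in the 3 targeted libraries, against 58.4, 60.5 and 64.5 CPM (lowest, median, highest of 6) in control libraries, so that every targeted library lay under every control library. The share of all genes so separated was not computed. In batch 1 the 4 targeted libraries had 36.1, 35.2, 35.8 and 41.9 CPM and the 2 control libraries 40.8 and 24.4 CPM, so that 3 targeted libraries lay between the control libraries and 1 above both. The log2 fold change over both batches was -0.05 ± 0.17. The difference between the D1 and D2 guide effects was 0.47 ± 0.17 for Per1 (p = 0.00591), 0.47 for Per2 and 0.39 for Per3, each with an adjusted p of 1, and 0 of 10 clock genes passed against 0.00393% of all genes. The guide effect is not shown to differ between D1 and D2 arms for any of them.

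Arntl, which encodes the activator BMAL1, had negative guide differences in 5 of the 6 arms, the M_D1 and M_D1-D2 differences changing sign under at least 1 alternative processing. In F_D2 it had 8.21, 17.0 and 24.7 CPM (lowest, median, highest of 8) in targeted libraries and 17.8, 19.7 and 24.8 CPM in control libraries, with a log2 fold change of -0.30 ± 0.13. In F_D1-D2 it had 8.04, 15.7 and 22.4 CPM in 12 targeted libraries and 15.1, 20.7 and 23.8 CPM in 8 control libraries, with a log2 fold change of -0.26 ± 0.12. The groups overlapped in both arms. The lowest value in each, 8.21 CPM in library 17907 and 8.04 CPM in library 19610, came from 8 and 5 reads in libraries with over 90% of counts in 10 genes, all 4 of which are targeted, and without those 4 the differences were -0.30 in F_D2 and -0.22 in F_D1-D2. In M_D2 the 4 targeted libraries of batch 1 had 13.4, 13.4, 13.6 and 16.2 CPM, below both control libraries of that batch at 20.7 and 17.8 CPM, and in batch 2 the 3 targeted libraries had 19.0, 25.4 and 18.0 CPM, 2 of them below the 20.6 to 30.5 CPM of the control libraries. The M_D2 log2 fold change was -0.34 ± 0.14. Over the 6 arms the mean effect on Arntl was -0.19 ± 0.06 (p = 0.00193, adjusted p = 0.516), beside -0.15 for Cry1 and 0.17 for Per1. No gene of the 25420 passed in that mean (0%), although 2419 had p under 0.05 before adjustment, and 0 clock genes passed in edgeR.

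**Figure D2:**
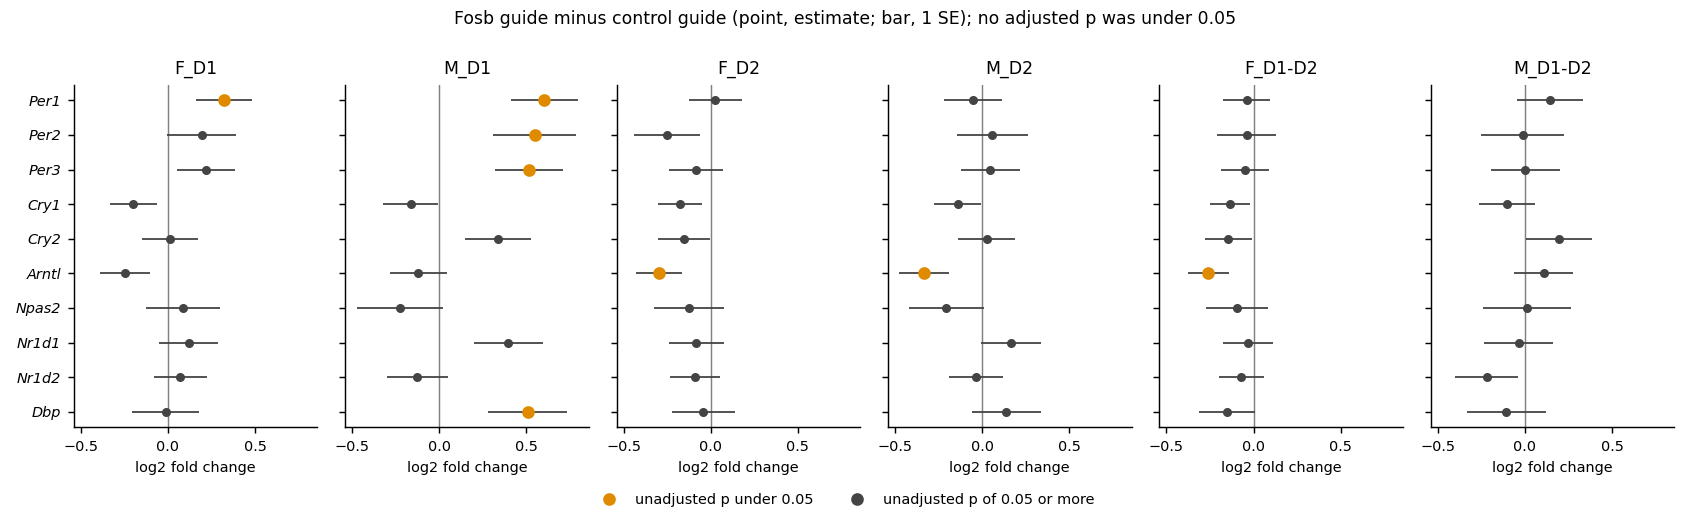
Log2 fold change (x axis) of each clock gene (y axis), targeted minus control, in each of the 6 arms; points are edgeR estimates, bars are 1 SE, and orange marks an unadjusted p under 0.05. The orange points are Per1, Per2, Per3 and Dbp in M_D1, Per1 in F_D1, and Arntl in F_D2, M_D2 and F_D1-D2, and no adjusted p was under 0.05.

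The Cryptochrome genes, which encode the CRY repressors, Npas2 and the REV-ERB genes had no guide difference with p under 0.05 in any arm. Cry1 was lower in the targeted group in all 6 arms, with log2 fold changes from -0.20 in F_D1 to -0.10 in M_D1-D2, and in F_D1-D2, M_D2 and M_D1-D2 its sign changed under 1 alternative each. Cry2 ran from -0.15 in F_D2 to 0.34 in M_D1, where it had 40.8, 50.7 and 69.8 CPM in targeted libraries and 36.0, 39.5, 42.8 and 58.5 CPM in control libraries, which overlapped. Nr1d1 was at 0.40 ± 0.20 in M_D1, its largest guide difference, with 25.6, 35.6 and 49.5 CPM in targeted libraries and 26.8, 28.7, 25.7 and 31.5 CPM in control libraries. Nr1d2 ran from -0.22 in M_D1-D2 to 0.07 in F_D1, and Npas2 from -0.23 in M_D1 to 0.09 in F_D1. Of 12 partner genes of the loop (among them Clock, Arntl2, Ciart, Cipc, Bhlhe40, Bhlhe41, Rora, Rorb, Nfil3, Tef and Hlf) and 9 genes that modify or degrade its proteins (among them Csnk1d, Csnk1e, Fbxl21, Btrc, Fbxw11, Usp2, Timeless and Gsk3b), 0 passed in any guide comparison.

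Among the control libraries, levels of some clock genes differed between sexes and vector designs. Any difference among the 6 control groups passed for 5 of 10 clock genes, Arntl (adjusted p = 0.00608), Nr1d1 (0.0147), Per2 (0.0192), Cry2 (0.0275) and Dbp (0.0468), where 16.5% of all genes passed. Of the partners Bhlhe41, Ciart and Cipc passed (3 of 12) and of the modifiers Csnk1d, Csnk1e and Usp2 (3 of 9). With the female minus male difference averaged over the 3 combinations of Cre line and vector, 4 of 10 clock genes were higher in females and none lower, against 28.6% of all genes called, 15.3% higher and 13.2% lower.

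Cry2 had the lowest adjusted p between the sexes. In female control libraries it had 47.0, 66.9 and 85.2 CPM (lowest, median, highest) in F_D1, 50.2, 58.3 and 87.2 CPM in F_D2, and 46.0, 74.2 and 92.4 CPM in F_D1-D2. In male control libraries it had 36.0, 39.5, 42.8 and 58.5 CPM in M_D1, 62.9 and 38.9 CPM in batch 1 of M_D2, and 32.4, 54.7 and 94.4 CPM in M_D1-D2. The sexes overlapped, and the log2 difference was 0.39 ± 0.10 with an adjusted p of 0.00329 in edgeR. Arntl differed by 0.32 ± 0.09 (adjusted p = 0.00555). It was highest in F_D1-control libraries, at 18.8, 27.3 and 31.0 CPM, against 15.9, 13.7, 12.5 and 22.5 CPM in M_D1-control libraries. The difference was uneven: mean log2 CPM was 4.69 in F_D1 and 3.98 in M_D1 control libraries, 4.35 in F_D2 and 4.27 in M_D2 control libraries of batch 1, and 4.28 in F_D1-D2 and 4.17 in M_D1-D2 control libraries. Whether the sex difference differs between these combinations of Cre line and vector was not tested, and the 6 M_D2-control libraries of batch 2 had a mean of 4.635. Per2 differed by 0.44 ± 0.13 (adjusted p = 0.00853) and Nr1d1 by 0.33 ± 0.11 (adjusted p = 0.0186). Without a batch term the values for Per2 and Nr1d1 were 0.08 and -0.03, and only Cry2 passed. The male controls of batch 2 were high in both, at 29.9 to 38.9 CPM for Per2 and 62.4 to 93.7 CPM for Nr1d1.

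Of the clock partners, Bhlhe40 (0.33) and Cipc (0.25), whose products repress or bind the activator dimer, were higher in females. Of the modifiers, Csnk1d (0.31) and Csnk1e (0.34), kinases of the PER proteins, the ubiquitin protease gene Usp2 (0.43) and Btrc (0.19) were higher. The medium spiny neuron list moved with sex: it ran from 6.92 to 8.61 (median 7.91) in mean log2 CPM in the 24 female control libraries and from 5.93 to 8.49 (median 7.58) in the 13 male control libraries of batch 1, with 3 of 10 markers higher in females. Without the 5 libraries under 7 in that list, Per2 (0.36), Cry2 (0.31) and Arntl (0.32) still passed and Nr1d1 did not (0.26, adjusted p = 0.0777). Without the 7 libraries, all controls, under 5 in mean log2 CPM of the interferon response genes, Cry2 and Arntl passed and Per2 (0.29) and Nr1d1 (0.27) did not. The share of all genes called between the sexes in these fits is not given here. The lost calls are therefore not shown to be particular to Per2 and Nr1d1.

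Between the vector designs in male controls, 2 of 10 clock genes passed, both higher in M_D1-D2, against 10.1% of all genes called, 7.53% higher and 2.56% lower. Per1 had 21.6, 36.9 and 70.4 CPM (lowest, median, highest of 7) in M_D1-D2-control libraries and 19.6, 26.5, 30.9 and 28.1 CPM in M_D1-control libraries, with a log2 difference of 0.65 ± 0.19 and an adjusted p of 0.0238 in edgeR. Nr1d1 had 24.6, 40.8 and 63.3 CPM in M_D1-D2-control libraries and 26.8, 28.7, 25.7 and 31.5 CPM in M_D1-control libraries, a difference of 0.66 ± 0.20 (adjusted p = 0.0285). The groups overlapped for both. Glial markers moved in the same comparison: the oligodendrocyte list had a median of 7.34 in M_D1-D2-control and 6.70 in M_D1-control libraries (mean log2 CPM, 3 of 9 markers passing higher), and the astrocyte list 7.67 and 7.17 (2 of 8 passing higher). Across batch 1 libraries the oligodendrocyte list correlated with Nr1d1 at r = 0.351 (rho = 0.307, adjusted permutation p = 0.021, and r = 0.434 without the 2 farthest libraries) and with Per1 at r = 0.009 (rho = 0.042). The medium spiny neuron list ran from 5.93 to 8.49 (median 7.72) in M_D1-D2-control and from 7.19 to 7.58 (median 7.38) in M_D1-control libraries. Across batch 1 libraries it correlated with Per1 at r = 0.587 (rho = 0.574) and with Nr1d1 at r = 0.558 (rho = 0.506). The part of the glial and neuronal lists in the difference was not tested. The calls rest on the 4 M_D1-control libraries. Neither gene passed without library 17789 (Per1 at 0.54, Nr1d1 at 0.63) or without library 18068 (0.66 and 0.67), and Nr1d1 did not without library 18069 (0.62). Over all genes the share called fell as well, from 10.1% to 1.57%, 0% and 2.37% without these libraries in that order. Of the modifiers, Csnk1d (0.42) and Usp2 (0.73) passed, and of the partners none. The M_D1-control libraries that stand low here are also those against which the M_D1 guide differences above were measured. In the other 5 pairwise comparisons of Cre lines or vector designs within a sex no clock gene passed, where at most 0.0197% of all genes did. Before adjustment Dbp was higher in F_D1-D2-control than in F_D1-control libraries (0.62 ± 0.18, p = 0.000874, adjusted p = 0.822), at 35.6, 72.7 and 112 CPM against 35.2, 47.0 and 71.0 CPM.

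**Figure D3:**
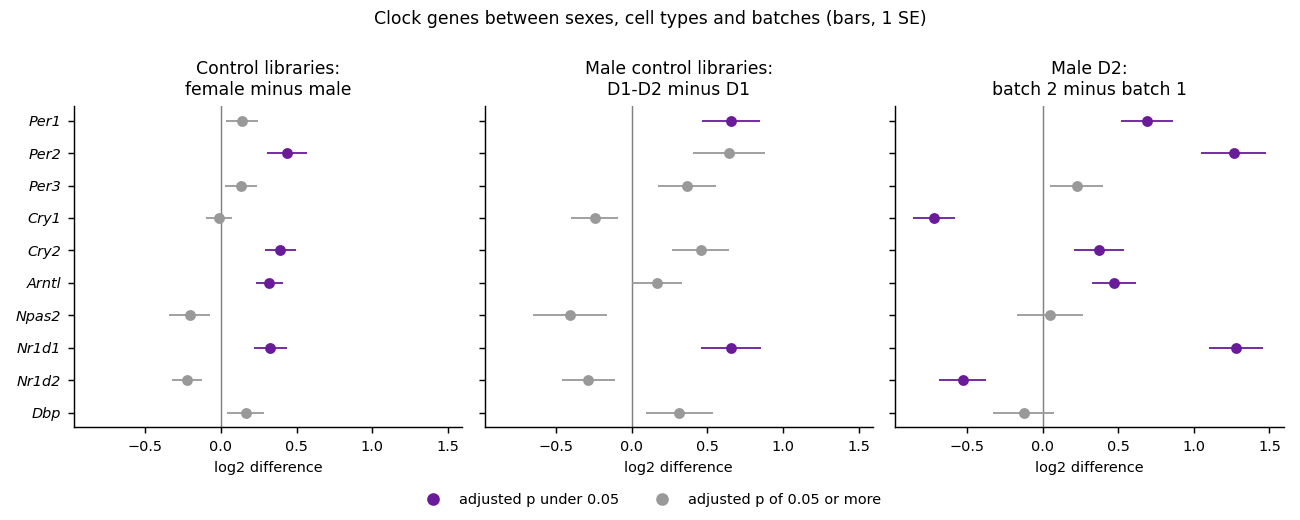
Log2 difference (x axis) of each clock gene (y axis) for female minus male control libraries, M_D1-D2 minus M_D1 control libraries, and batch 2 minus batch 1 in M_D2; points are edgeR estimates, bars are 1 SE, and purple marks an adjusted p under 0.05. Purple points number 4, 2 and 7, and only the batch panel has purple points left of 0, for Cry1 and Nr1d2.

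The widest differences of clock genes in these data lay between the sequencing batches of male D2 libraries. Per the labels the 2 batches are sequencing batches, and whether they also differ in day or hour of dissection was not used here. In M_D2, 7 of 10 clock genes differed, 5 higher and 2 lower in batch 2, where 62.3% of all genes did, 32.6% higher and 29.7% lower. Nr1d1 had 64.7, 71.6 and 94.3 CPM in the 3 targeted and 62.4, 70.5 and 93.7 CPM (lowest, median, highest) in the 6 control libraries of batch 2. In batch 1 it had 42.2, 32.0, 27.3 and 35.1 CPM in targeted and 34.2 and 20.9 CPM in control libraries, so the batches did not overlap, and the log2 difference was 1.28 ± 0.18 (adjusted p = 3.74e-09, edgeR). Per2 followed it with 1.26 ± 0.21, at 29.9 to 38.9 CPM in all batch 2 libraries and 9.91 to 16.3 CPM in the M_D2 libraries of batch 1. Per1 (0.69), Arntl (0.47) and Cry2 (0.37) were also higher. How many of all genes had no overlap between the batches was not computed.

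Cry1 and Nr1d2 went the other way. Cry1 had 19.8, 23.9 and 18.0 CPM in targeted and 18.2, 22.2 and 25.4 CPM (lowest, median, highest) in control libraries of batch 2. In batch 1 of M_D2 it had 34.7, 28.8, 35.1 and 33.9 CPM in targeted and 45.0 and 30.1 CPM in control libraries, again without overlap, a difference of -0.72 ± 0.14. Nr1d2 differed by -0.53 ± 0.15, with all 9 batch 2 libraries between 95.0 and 110 CPM. The paralogues moved apart in batch 2: Nr1d1 rose and Nr1d2 fell, and Cry2 rose and Cry1 fell, relative to batch 1. Per3, Npas2 and Dbp did not pass. Dbp was at -0.13 ± 0.20.

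The partner genes split in the same comparison, where 32.6% of all genes were higher and 29.7% lower in batch 2. Rora (1.85), Rorb (1.09), Arntl2 (1.96), Hlf (0.70), Bhlhe41 (0.52), Cipc (0.50) and Clock (0.50) were higher, and Ciart (-0.64) was lower. Of the modifiers, Csnk1e (0.98), Gsk3b (0.87), Btrc (0.48) and Csnk1d (0.46) were higher and Fbxw11 (-0.18) was lower. The cortical neuron marker list had a higher median in batch 2, from 1.55 to 5.65 (median 4.11) in mean log2 CPM against 0.14 to 5.40 (median 1.69) in all of batch 1, with 6 of 10 markers passing higher in the M_D2 comparison. In M_D2-targeted libraries it ran from 3.67 to 5.65 in batch 2 and from 0.81 to 1.80 in batch 1. The M_D2-control libraries overlapped, from 1.55 to 5.63 in batch 2 and at 2.11 and 4.15 in batch 1. In that list Fezf2 and Slc30a3 were at 0 in 2 libraries each and Neurod6 in 1. Markers of other lists differed as well. The counts of passing markers stand beside the same shares of all genes, 32.6% higher and 29.7% lower. No list was tested against those shares. Of the microglia markers 1 was higher and 4 of 10 lower, of the astrocyte markers 0 higher and 4 of 8 lower, of the interferon response genes 0 higher and 3 of 13 lower, and of the medium spiny neuron markers 3 higher and 4 of 10 lower in batch 2. The microglia list ran from 6.08 to 6.78 in M_D2-targeted libraries of batch 2 and from 7.34 to 7.83 in those of batch 1, and in M_D2-control libraries from 5.85 to 7.03 in batch 2 and at 5.41 and 7.16 in batch 1. The activity-regulated genes ran from 4.32 to 5.03 in control and from 4.10 to 4.16 in targeted libraries of batch 2. In M_D2 of batch 1 they had 3.47 to 4.02 in targeted and 3.58 and 4.08 in control libraries. A list of glucocorticoid-responsive genes ran from 3.40 to 3.91 in control and from 3.31 to 3.81 in targeted libraries of batch 2. In M_D2 of batch 1 it had 3.10 to 3.23 and 2.89 and 3.11. Neither list overlapped between the batches. The part of these lists in the batch difference was not tested.

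Within batch 1 the clock genes varied together from library to library. Each library's log2 CPM was taken as its difference from its group's mean, which leaves 78 libraries, and all 45 pairs among the 10 genes had a positive correlation, from 0.104 to 0.83 with a median of 0.462. Of these, 35 passed after adjustment over the 90 correlations of both batches (permutation test within groups), all of them positive and at r of at least 0.307. Among all pairs of 17420 genes of at least 1 CPM, 23.1% had r at or above that value, and the median r was 0.051. The strongest was Cry2 with Nr1d1, at Pearson's r = 0.83 and Spearman's rho = 0.795 (adjusted permutation p = 4.09e-05, the smallest that the permutations can give after adjustment), and r = 0.801 without the 2 libraries farthest on the Cry2 axis. Per1 with Per2 had r = 0.764 (rho = 0.759), Per2 with Nr1d1 0.755 (rho = 0.749), Per1 with Nr1d1 0.738 (rho = 0.714) and Per2 with Dbp 0.712 (rho = 0.692). Per1, Per2, Cry2, Nr1d1 and Dbp can be read as 1 block, chosen from these values, in which all 10 pairs had r of at least 0.645. Without the 2 libraries farthest on the x axis of each pair, all 45 stayed positive, from 0.132 to 0.801, and 37 passed. The share over all gene pairs was not computed for that setting.

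A second block, read from the same values, joined Per3, Cry1, Npas2 and Nr1d2, with Arntl closest to Cry1. Per3 with Cry1 had r = 0.662 (rho = 0.577), Cry1 with Npas2 0.658 (rho = 0.707), Cry1 with Nr1d2 0.658 (rho = 0.669), Npas2 with Nr1d2 0.622 (rho = 0.684) and Cry1 with Arntl 0.612 (rho = 0.57). The blocks were not sharply apart. Between them, Arntl aside, r ran from 0.104 (Nr1d1 with Nr1d2) to 0.577 (Per3 with Dbp, rho = 0.573). Per3 with Nr1d2, inside the second block, also had r = 0.577 (rho = 0.546). The paralogues sat in different blocks: Cry1 with Cry2 had r = 0.372 (rho = 0.357) and Nr1d1 with Nr1d2 r = 0.104 (rho = 0.137, adjusted permutation p = 0.583), the lowest of all pairs. Arntl with Dbp, a pair of opposite phase in rhythmic tissues, had r = 0.256 and rho = 0.3. It did not pass by r (adjusted permutation p = 0.0504) and passed by rho (adjusted permutation p = 0.0293). The share over all gene pairs was not computed for rho. Arntl with Per2 had r = 0.163 (rho = 0.224). No pair was negative in batch 1.

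**Figure D4:**
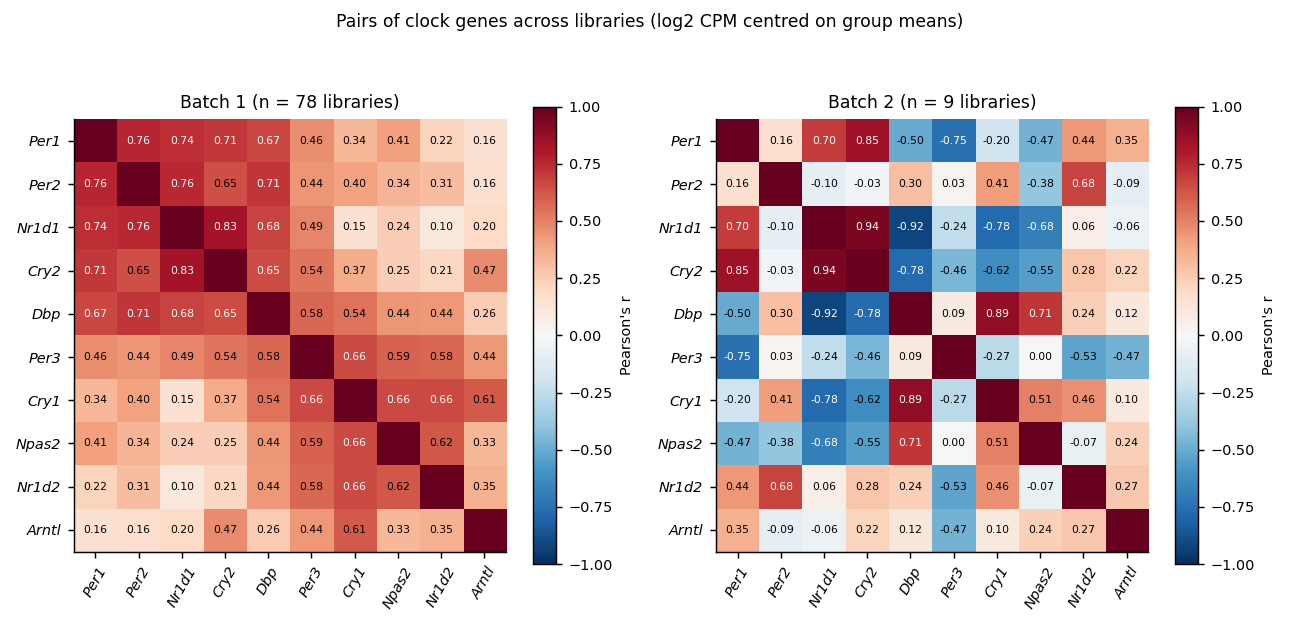
Pearson's r of each pair of clock genes across libraries (log2 CPM as the difference from the group mean), for the 78 libraries of batch 1 and the 9 of batch 2; red is positive and blue negative. Every pair is red in batch 1, with the deepest red among Per1, Per2, Nr1d1, Cry2 and Dbp, while 21 of 45 pairs are blue in batch 2.

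The clock genes also varied with markers of the cells and of the inflammation in the tissue. The mean of the 10 medium spiny neuron markers correlated with Dbp at r = 0.729 (rho = 0.801), with Npas2 at 0.61 (rho = 0.623), with Per1 at 0.587 (rho = 0.574) and with Arntl at 0.397 (rho = 0.487), and 9 of the 10 clock genes passed by r over 240 such relations (permutation test), all at r of at least 0.397, which 12% of all genes reached (2097 of 17410). Nr1d2, at r = 0.2 (adjusted p = 0.268), passed by rho only (0.347, adjusted p = 0.0228). The mean of 13 interferon response genes correlated negatively with 7 clock genes by r and with all 10 by rho after adjustment, and 26.7% of all genes had an r as low as the weakest of the 7, Arntl at -0.252. The lowest values were with Nr1d2 at -0.634 (rho = -0.634), Cry1 at -0.577 (rho = -0.592), Per3 at -0.556 (rho = -0.685) and Npas2 at -0.538 (rho = -0.585), and Per2 (-0.362) and Dbp (-0.38) also passed by r. Without the 2 farthest libraries these 4 were at -0.648, -0.536, -0.569 and -0.529, and the 4 values with the neuronal list at 0.723, 0.595, 0.477 and 0.344. In the 71 batch 1 libraries with an interferon mean of at least 5, the 4 interferon values were -0.513, -0.422, -0.634 and -0.543, each past the threshold, and Cry2 (-0.483), Nr1d1 (-0.469), Per2 (-0.436) and Per1 (-0.394) passed too. Arntl (-0.278, adjusted permutation p = 0.1) and Dbp (-0.262, adjusted permutation p = 0.0976) no longer passed there. The share over all genes was computed neither for these 71 libraries nor for the counts by rho. After the cortical, interferon, choroid and ependymal lists and the share of the 10 most abundant genes had been regressed out, 26 pairs passed and 44 of 45 stayed positive. With the medium spiny neuron list regressed out as well, 27 pairs were positive and 18 negative, 16 passed as positive and 3 as negative. The share over all gene pairs was not computed after either step, so these counts are not set against other genes. The 3 negative pairs were Cry2 with Npas2 (r = -0.448), Cry1 with Nr1d1 (r = -0.342) and Npas2 with Nr1d1 (r = -0.324), each 1 gene from either block. Arntl with Dbp was then at r = -0.214 (adjusted p = 0.156). The lists share libraries and scaling with the clock genes, and their part in the correlations was not tested further.

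In batch 2, with 9 libraries, 24 pairs were positive and 21 negative. Cry2 with Nr1d1 had r = 0.941 (rho = 0.95, adjusted exact permutation p = 0.000868, and r = 0.927 without the 2 farthest libraries). Cry1 with Dbp had r = 0.885 (rho = 0.85, adjusted exact permutation p = 0.0135, and r = 0.798 without the 2 farthest), and Per1 with Cry2 r = 0.85 (rho = 0.8, adjusted exact permutation p = 0.0384, and r = 0.717 without the 2 farthest). Over all gene pairs 4.32% had a positive r at least as large as the smallest of these 3. Nr1d1 with Dbp, positive in batch 1, was at r = -0.916 (rho = -0.767, adjusted exact permutation p = 0.0188), and Cry2 with Dbp at r = -0.781 (rho = -0.667, adjusted exact permutation p = 0.0417), where 5.54% of all gene pairs had a negative r as large. These p-values are those of r. By rho neither negative pair passed (adjusted exact permutation p = 0.0684 for Nr1d1 with Dbp and 0.156 for Cry2 with Dbp). Per1 with Cry2 did not pass by rho either (adjusted exact permutation p = 0.0739). Without the 2 libraries farthest on the x axis 3 negative pairs passed, with Cry2 and Dbp at r = -0.863 and Nr1d1 with Dbp at r = -0.571, which did not pass. No share over all gene pairs was computed for that setting. Libraries 3631 (control) and 3632 (targeted) had the highest Nr1d1, 93.7 and 94.3 CPM, and the lowest Dbp, 38.6 and 42.9 CPM, of the batch; both were low in the medium spiny neuron list, at 5.72 and 6.94 in mean log2 CPM, and high in the cortical list, at 5.63 and 5.65. Without them no negative pair passed, and Nr1d1 with Dbp was at r = -0.572. In 1 model over both batches the slope of Nr1d1 on Dbp was -1.07 in batch 2 and 0.585 in batch 1, a difference of -1.65 (adjusted p = 0.0218, limma), where 5.57% of all genes passed. Without the 2 libraries it was -1.12 with an adjusted p of 1, and 0.00787% of all genes passed.

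**Figure D5:**
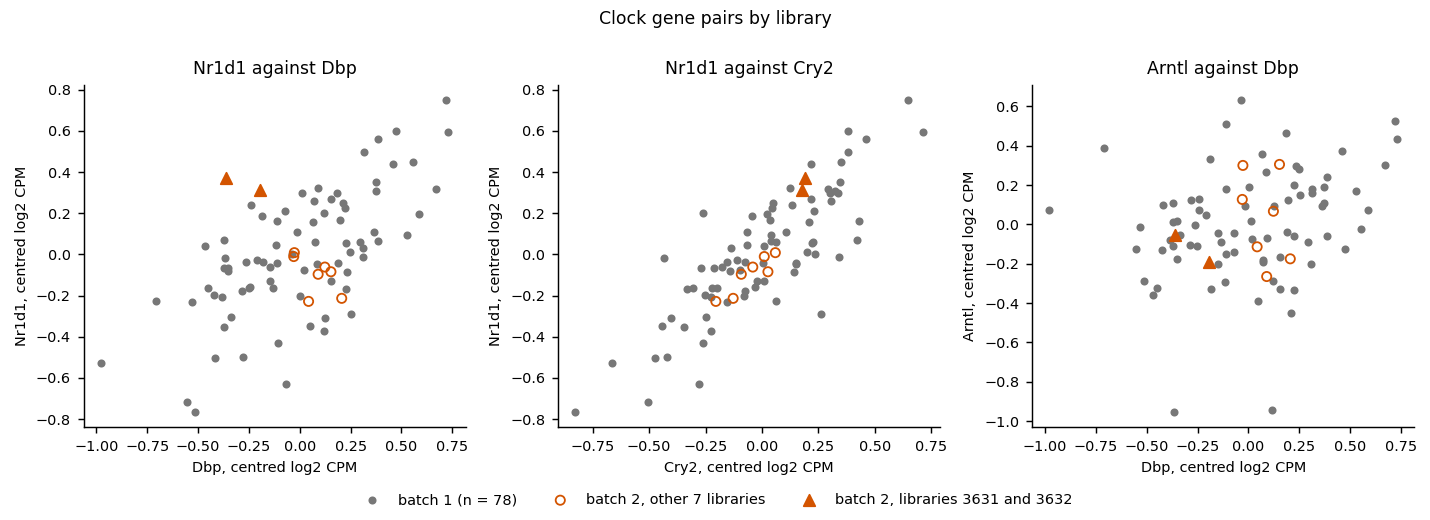
Each point is 1 library, with log2 CPM as the difference from its group mean on both axes, for Nr1d1 against Dbp, Nr1d1 against Cry2, and Arntl against Dbp; grey is batch 1 (78 libraries), open orange batch 2, and triangles are libraries 3631 and 3632. Nr1d1 rises with Dbp and with Cry2 in batch 1, the triangles lie off the Dbp trend and on the Cry2 trend, and Arntl shows little slope on Dbp.

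Dbp and Arntl were then each set against all genes. In batch 1, 8 of the 9 other clock genes moved with Dbp beside the group (limma, adjusted p under 0.05), all with a positive slope and Arntl the exception, where 27.0% of all genes moved with Dbp and 16.7% did so with a positive slope. Without the 4 libraries dominated by 10 genes Arntl passed as well (slope 0.19, adjusted p = 0.0426, limma). Of all genes 19.6% then passed with a positive slope. Next, the cortical, interferon, and choroid and ependymal lists and the share of the 10 most abundant genes were added as covariates. With these, 7 genes passed, against 15.5% of all genes with a positive slope. The medium spiny neuron list was not among the covariates, and all 10 of its markers still passed with a positive slope (median 0.964). Among 14323 genes ranked by r with Dbp, whose median r was 0.064, the partners Tef (rank 11, r = 0.784), Ciart (rank 17, r = 0.776), Hlf (rank 23, r = 0.76), Bhlhe41 (rank 26, r = 0.758) and Cipc (rank 113, r = 0.705) stood near the top. Tef and Hlf are the family relatives of Dbp, and Ciart, Bhlhe41 and Cipc encode repressors of the activator dimer. Per2 ranked 97, Nr1d1 185, Per1 210 and Cry2 275. Nfil3, whose product represses at the D-box that DBP activates, moved against Dbp (slope -0.66, r = -0.401, adjusted p = 0.00414), the only partner to do so in that model, where 10.3% of all genes did. With the covariates Nfil3 did not pass (slope -0.19, adjusted p = 0.247) and Arntl2 did (slope -0.76, adjusted p = 0.0335). Of the modifiers, Usp2 (slope 0.68), Btrc (0.35), Gsk3b (0.41), Csnk1e (0.27) and Fbxl21 (0.22) moved with Dbp, the last of them not with the covariates (0.10, adjusted p = 0.411).

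In batch 2, r with Dbp was 0.864 for Bhlhe41, 0.503 for Hlf, 0.337 for Tef, -0.383 for Cipc and -0.412 for Ciart, and of the clock genes only Cry1 (slope 0.84) and Nr1d1 (slope -1.07) passed, against 24.5% of all genes. Arntl2 (slope -2.24), Rorb (slope -2.17) and Csnk1e (slope -1.36, adjusted p = 0.00541) moved against Dbp there, Csnk1e in the opposite direction from batch 1, and Nfil3 had a positive slope that did not pass (1.26, adjusted p = 0.0562). The genes outside the clock lists most like Dbp in batch 1 were Actl6b (r = 0.818), Dpf1 (0.818), C2cd2l (0.817), Rap1gap (0.816) and Rem2 (0.801). In batch 2 they were at -0.436, 0.387, 0.364, 0.831 and 0.828 in that order. Actl6b and Dpf1 encode subunits of the neuronal BAF chromatin remodelling complex. The least like Dbp were Slc35f5 (-0.674), Tmsb4x (-0.661), Rps27l (-0.635), Rras2 (-0.634) and Vps26c (-0.631).

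With Arntl moved 5 of the 9 other clock genes, Cry1 (slope 0.56), Cry2 (0.50), Per3 (0.50), Npas2 (0.45) and Nr1d2 (0.36), all positive, where 28.7% of all genes moved and 21.2% did so with a positive slope. Cry1 ranked 46 of 14323 by r with Arntl. With the 4 covariates Cry1, Cry2 and Per3 passed, against 15.0% of all genes with a positive slope. Without the 4 dominated libraries Per2 (slope 0.68) and Dbp (slope 0.47) passed and Nr1d2 did not, 6 in all, against 17.5% of all genes. Clock, the other partner of BMAL1, moved with Arntl (slope 0.23, r = 0.426) and not with Dbp (r = 0.196). Cipc, Tef, Hlf and Rorb also moved with Arntl, as did the modifiers Btrc, Fbxw11 and Gsk3b, and no clock partner passed with a negative slope. Without the 4 dominated libraries Nfil3 (slope -0.84, adjusted p = 0.0235) and Bhlhe40 (slope -0.49, adjusted p = 0.0458) did. In batch 2 no gene passed with Arntl (0%). The genes most like Arntl were Dcaf1 (r = 0.774), Trappc11 (0.729), Dcun1d2 (0.728), Gpr27 (0.698) and Gas2l2 (0.697), which in batch 2 were at 0.455, 0.630, 0.631, 0.783 and 0.496. The least like it were Cenps (-0.609), Gpr174 (-0.582), Tmem150a (-0.56), Renbp (-0.55) and Tnfsf11 (-0.546).

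Within groups the spread of the clock genes lay around that of the median gene. The residual SD of log2 CPM ran from 0.265 for Cry1 to 0.406 for Npas2, beside a median of 0.33 over 17276 genes of at least 1 CPM. Npas2 (0.406), Per2 (0.38) and Dbp (0.363) lay above that median, Per3 (0.333) at it, and Nr1d1, Cry2, Per1, Arntl, Nr1d2 and Cry1 below it.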

How the data were processed

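RNA from nucleus accumbens was sequenced, and the authors deposited raw gene counts; per the submitters' processing notes the tools were Trim Galore, HISAT2, SAMtools, featureCounts, Subread and DESeq2 1.27 with build mm10. The sources used here do not give the annotation release or the strand setting. Of 88 labelled libraries 87 had a column and entered, and 1 column that matches no label was not used. Totals ran from 12430387 to 69568367 counts per library, and p-values and SEs cover the spread between libraries. Symbols for 55394 of 55487 IDs came from GENCODE M21, 93 had none, and 6164 genes had no counts. Each library's group came from its labels, which give no replicate numbers shared between groups.

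Counts were fitted in R 4.3.3 with edgeR 4.0.16 (TMM, filterByExpr by group, robust quasi-likelihood) in 1 model of 12 groups and sequencing batch, with Benjamini-Hochberg adjustment over 25420 genes and a threshold of 0.05. DESeq2 1.42.0 and limma-voom (limma 3.58.1) were alternatives. Correlations used log2 CPM (prior count 2) as differences from group means within batch, with two-sided permutations within groups, 100000 in batch 1 and all 4320 in batch 2, adjusted over 90 correlations. Adjusted permutation p-values in the text are those of r unless rho is named. Relations with marker lists used 20000 resamples, adjusted over 240. Genes moving with Dbp or Arntl were tested with limma (trend, robust). Where groups or batches are said not to overlap, the share of all genes without overlap was not computed. The scripts were tested on simulated data.

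The text names all 10 clock genes, each listed partner or modifier that passed a test, and for Dbp and Arntl the 5 highest and 5 lowest genes by r in batch 1 among those of at least 1 CPM with an established symbol, except that results of some listed genes are not reported here. The clock genes, gene lists and tests were chosen with earlier results of these data known, and the blocks of correlated genes were read from the correlations themselves.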

Additional observations from a re-analysis of the deposited data

Results flagged for a closer look

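In 10 of 110 gene-by-group sets of 4 to 10 libraries of 1 batch, the lowest or highest library stood apart from the rest by Dixon's criterion at 95%, where chance gives about 1 in 20, or 5.5. Of these, 4 lay in F_D2-targeted. Per1 was lowest at 29.66 CPM in library 18142 (nearest 36.34). Per2 was lowest at 7.315 CPM in library 18432 (nearest 11.75). Library 17907 was lowest for Per3 at 5.13 CPM (nearest 12.03) and for Cry1 at 14.36 CPM (nearest 25.6). Libraries 17907 and 18432 are among the 4 with over 90% of counts in 10 genes.

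Library 18893 was the highest of the 4 M_D2-targeted libraries of batch 1 for Per1, at 41.9 CPM (nearest 36.13), and for Arntl, at 16.2 CPM (nearest 13.58). In control groups, Cry2 was lowest at 45.99 CPM in library 19762 of F_D1-D2 (nearest 69.75), Arntl highest at 24.19 CPM in library 19512 of M_D1-D2 (nearest 18.16), and Npas2 lowest at 40.76 CPM in library 3631 of M_D2 in batch 2 (nearest 67.74). Npas2 was also lowest at 35.62 CPM in library 17728 of M_D1-D2-targeted (nearest 59.19).

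The slope of Nr1d1 on Dbp differed between batch 2 and batch 1 by -1.652 (limma, adjusted p = 0.0218), a call that was lost without libraries 3631 and 3632.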

How the results depend on the processing

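Of the alternative values for the log2 differences of named clock genes, 296 kept their direction and side of the threshold, 13 lost the call, 3 gained it, and 1 reversed (Nr1d1, female minus male, -0.029 without a batch term). With limma-voom 3 clock genes passed for the M_D1 guide (2.94% of all genes), 1 for the D1 guide over both sexes (0.102%), 2 for F_D1-D2 minus F_D2 controls (8.62%), 7 for M_D1-D2 minus M_D1 controls (35.0%) and 8 for any difference among controls (39.6%). Without a batch term 8 passed for M_D2 minus M_D1 controls (49.6% of all genes), 0 for M_D1-D2 minus M_D1 (0%), 2 for M_D1-D2 minus M_D2 (42.2%) and 1 for female minus male (22.3%). For M_D1-D2 minus M_D1 controls, 5 passed without the 7 libraries of low interferon genes (28.0% of all genes), 4 without the 5 of low medium spiny neuron markers (20.4%), and 0 to 3 when each M_D1-control library was left out. With batch 1 alone 3 passed for any difference among controls (14.7%).

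Among pairs in batch 1, with the medium spiny neuron list regressed out, 16 positive and 3 negative pairs passed. Signs then reversed for Arntl with Dbp (-0.214), Nr1d1 with Nr1d2 (-0.184), Cry1 with Dbp (-0.088), Cry1 with Nr1d1 (-0.342), Cry2 with Npas2 (-0.448) and Npas2 with Nr1d1 (-0.324). Without centring on group means Arntl with Dbp was at -0.008 and Nr1d1 with Nr1d2 at -0.037, and with the other marker lists regressed out Nr1d1 with Nr1d2 was at -0.051. In batch 2, 0 negative pairs passed without libraries 3631 and 3632, and 1 positive and 3 negative pairs without the 2 farthest libraries. For none of these alternative settings of the pairs was the share over all gene pairs computed. With covariates 3 clock genes moved with Arntl. The Nr1d1 slope on Dbp differed between batches by -1.122 (adjusted p = 1) without libraries 3631 and 3632. For all of these the cause was not tested.

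Counts over all genes moved more. M_D1-D2 minus M_D1 controls called 2567 genes, 0 without a batch term and 8898 with limma-voom. The M_D1 guide called 0 genes in edgeR and 747 with limma-voom. Of the 52 guide differences with p of at least 0.05, 29 changed sign under some setting, the largest of these at 0.218 in size. The alternatives that leave out libraries by marker lists, regress out the medium spiny neuron list or leave out libraries 3631 and 3632 were chosen after seeing the data. The DESeq2 Wald test was not run for any difference among controls or for the batches. No paired analysis was possible because the labels give no shared replicate numbers. Counts of 5 to 8 reads for Arntl, Per2 and Per3 in single libraries limit their precision there.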
